A study of Arabidopsis thaliana with 6 samples.

Results

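The heat shock genes of Arabidopsis thaliana examined here were 37 loci, chosen by their locus identifiers from the 33602 loci counted in each library. They comprised 14 heat shock transcription factors (HSFs) and 23 chaperones or heat tolerance proteins, divided into HSP101 and HSA32 (2 genes), HSP90 (4), HSP70 (5), BiP (3) and small heat shock proteins (9). RNA was sequenced from the shoots of 11-day-old seedlings in 2 groups of 3 biological replicates, Col-0 wild type and snl12345, a line in the same Col-0 ecotype with mutations in the 5 SIN3-LIKE genes SNL1 to SNL5. SIN3-LIKE proteins resemble the yeast protein Sin3, on which histone deacetylase complexes assemble. All plants grew with 16 h of light and 8 h of dark and were collected 5 h after lights on (ZT5). The labels name no heat treatment for either group and do not give the mutant alleles.

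Heat shock factors bind short inverted repeats of GAA, called heat shock elements, and switch on chaperone genes when proteins unfold. Class A factors activate, with the A1 group acting first and HSFA2 made later in the response, and many class B factors repress. The chaperones they control hold, refold or disaggregate proteins in the cytosol, while BiP does this work in the endoplasmic reticulum (ER), where a separate pathway, the unfolded protein response, sets its level.

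The elements that heat shock factors recognise were searched for in the 300 bases upstream of the annotated start of each gene (RefSeq annotation of TAIR10.1), on both strands. The 3-unit pattern was GAA, any 2 bases, TTC, any 2 bases and GAA, or the same with TTC and GAA exchanged. Of the 37 genes, 5 held it (13.5%), against 133 of 27443 protein-coding genes (0.485%). Imperfect 3-unit elements and bases outside the window were not searched. The HSP90.1 match begins 295 bases before the annotated start, near the edge of the window. The 5 genes are printed because their windows hold the 3-unit pattern in full, each on the strand of its gene and with the matches in capitals. The stretches lie at chr2:11135501-11135583 (plus strand) for HSFA2, chr3:19264914-19265046 (plus) for HSFA7A, chr5:21352257-21352309 (plus) for HSP90.1, chr3:16984868-16985001 (minus) for HSP17.4 and chr1:19980211-19980293 (plus) for AT1G53540, all in TAIR10.1.
HSFA2: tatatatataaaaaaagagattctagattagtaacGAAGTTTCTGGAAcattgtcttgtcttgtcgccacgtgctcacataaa
HSFA7A: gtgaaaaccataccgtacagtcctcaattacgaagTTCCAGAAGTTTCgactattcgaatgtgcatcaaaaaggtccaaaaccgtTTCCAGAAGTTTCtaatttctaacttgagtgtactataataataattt
HSP90.1: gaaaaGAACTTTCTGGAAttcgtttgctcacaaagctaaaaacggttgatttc
HSP17.4: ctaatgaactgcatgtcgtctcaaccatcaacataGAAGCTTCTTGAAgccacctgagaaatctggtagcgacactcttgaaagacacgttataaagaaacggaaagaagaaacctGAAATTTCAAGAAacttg
AT1G53540: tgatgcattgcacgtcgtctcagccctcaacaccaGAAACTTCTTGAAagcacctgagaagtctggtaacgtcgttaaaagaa
HSFA7A and HSP17.4 each held 2 matches, and the HSP17.4 match nearest the gene ended 5 bases before its annotated start. The shorter 2-unit core (GAA, any 2 bases, TTC), which every 3-unit match contains, stood in 9 of the 37 windows (24.3%) and in 11.5% of all windows. Neither ER stress element searched, CCAAT, any 9 bases and CCACG or, in its second form, ATTGG, any 1 base and CCACG, stood in any of the 37 windows, and they stood in 0.332% and 0.0656% of all windows. Of the 5 genes with a 3-unit match, HSP90.1 was higher and HSP17.4 lower in the mutant, HSFA2 and HSFA7A did not pass the test, and AT1G53540 had too few reads to be tested.

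The libraries held between 12622416 and 15774357 counted reads, and levels are given as CPM, that is, counts relative to library totals scaled by the TMM method. Transcripts of SNL1 to SNL5 were lower in the mutant (adjusted p between 0.000171 and 0.000213, edgeR). SNL1 fell 2.86-fold and SNL5 1.89-fold. In mutant replicates 1 to 3, SNL2 had 2.32, 2.64 and 7.57 CPM and SNL3 had 2.55, 2.02 and 7.04 CPM. SNL4 had 8.51, 7.43 and 14.8 CPM, so mutant replicate 3 kept the most of these transcripts. The part of this difference between mutant libraries in the results below was not tested. Summed CPM of 4 leaf marker genes spanned 37702 to 41136 in Col-0 and 35696 to 43911 in the mutant. Summed CPM of 8 root marker genes spanned 45.8 to 51.4 in Col-0 and 53.8 to 71.6 in the mutant, with WOX5 and IRT1 higher. IRT1 alone went from 10.6 to 19.9 CPM, and RHD6 (3.19 and 2.17 CPM) lay lower in every mutant library without passing the test. COBL9, PLT1, EXPA7 and CASP1 overlapped between groups. WOX5 rested on few reads, 6, 3 and 6 in Col-0 and 10, 15 and 10 in the mutant. NRT2.1 had 2, 1 and 1 reads in Col-0 and 0 in all 3 mutant libraries, too few to read a direction. The part of the root marker difference in the results below was not tested. Shoots are a mixture of cell types, and in such samples fewer cells of a type and less RNA per cell cannot be told apart.

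HSP101, all 4 HSP90 genes, 4 of 5 HSP70 genes and BIP1 and BIP2 were higher in the mutant. The factors were higher or lower about as often as genes at large. Of the 37 genes, 28 had enough reads for the test, and 13 of these were higher and 4 lower in snl12345 at an adjusted p below 0.05 (edgeR quasi-likelihood test). The background was wide, since 18.3% of the 19591 genes tested were higher and 16.5% lower, together 34.8%. Among the 16 chaperone genes tested, 11 were higher and 2 lower. Among the 12 HSF genes tested, 2 were higher, 2 lower and 8 did not pass, shares near those of all tested genes. At least 2-fold changes were found in 5 genes upward and 2 downward, where 3.93% and 2.45% of all tested genes reached that size. Every mutant library stood above every Col-0 library for 13 of the 28 genes (25.2% of all tested genes) and below for 5 (24.6%). The count of lower genes fell from 4 to 2 without Col-0 replicate 1, without Col-0 replicate 2 or without mutant replicate 2.

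**Figure D1:**
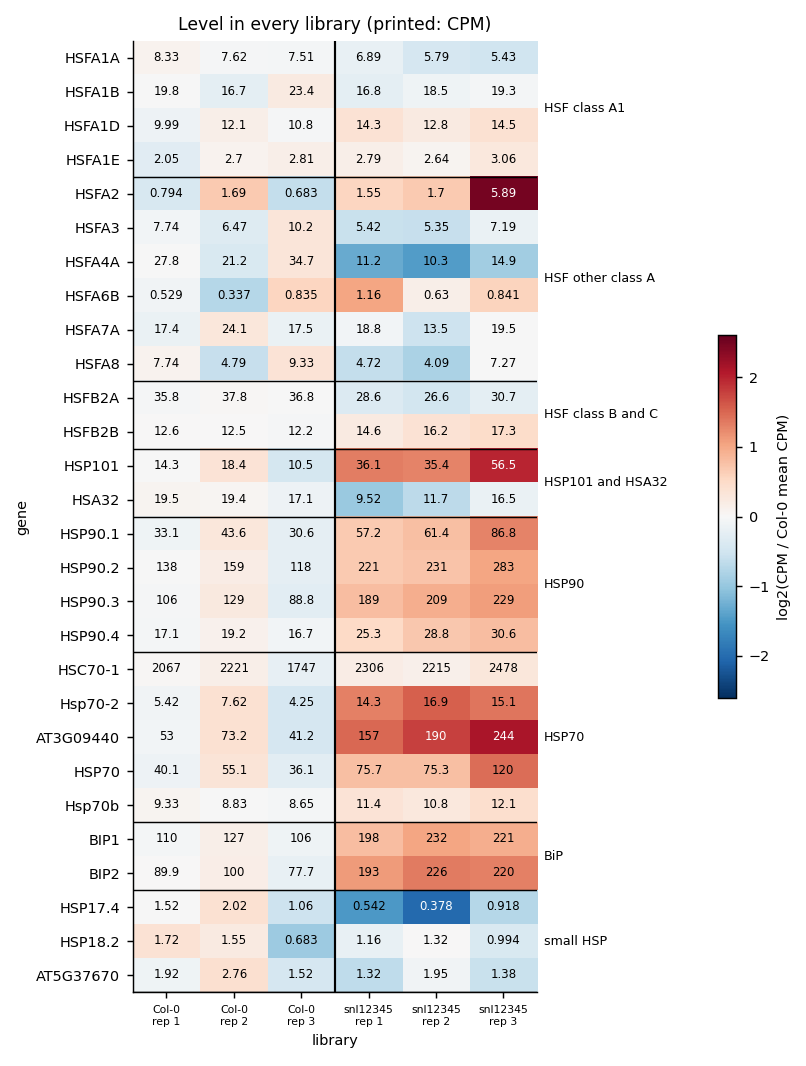
Heat map of the 28 tested genes (rows, grouped by class) in the 6 libraries (columns), with the CPM printed in each cell and the colour giving log2 of CPM over the Col-0 mean. The HSP90, HSP70 and BiP rows are red in all 3 mutant columns, palest in HSC70-1, and HSFA4A and HSP17.4 are blue in all 3.

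Of the 4 class A1 factors, the constitutively present activators of the heat response, HSFA1D was higher and the other 3 did not pass. Their summed level was 41.3 ± 2.81 CPM in Col-0 and 40.9 ± 1.25 CPM in the mutant (SD, n = 3), and the 4 log2 fold changes, between −0.38 and 0.34, had a median of 0.02, beside 0.000266 over all tested genes. HSFA1B on chromosome 5 was the most abundant, with 19.8, 16.7 and 23.4 CPM in Col-0 replicates 1 to 3 and 16.8, 18.5 and 19.3 CPM in the mutant replicates. These groups overlapped (log2 fold change −0.13 ± 0.13 SE, edgeR adjusted p = 0.446). HSFA1D on chromosome 1 had 9.99, 12.1 and 10.8 CPM in Col-0 and 14.3, 12.8 and 14.5 CPM in the mutant. It was the A1 factor that rose, by 1.26-fold without overlap between groups (edgeR adjusted p = 0.0411). Its call was lost when any library except Col-0 replicate 2 was left out. The adjusted p (edgeR) was 0.147 and 0.103 without Col-0 replicates 1 and 3. It was 0.0849, 0.0575 and 0.0828 without mutant replicates 1, 2 and 3. HSFA1A lay lower in every mutant library than in any Col-0 library but did not pass (log2 fold change −0.38 ± 0.13 SE, edgeR adjusted p = 0.0576). Without mutant replicate 1 its adjusted p was 0.03. HSFA1E, the least abundant of the 4, had group means of 2.52 and 2.83 CPM that overlapped (edgeR adjusted p = 0.525).

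Among the other 6 class A factors, HSFA4A, a factor linked to responses to reactive oxygen species, was the gene that changed. It had 27.8, 21.2 and 34.7 CPM in Col-0 and 11.2, 10.3 and 14.9 CPM in the mutant. The highest mutant library lay below the lowest Col-0 library, and the fall was 2.30-fold (27.9 ± 6.72 to 12.1 ± 2.46 CPM, SD, n = 3, edgeR adjusted p = 0.00296). Per kilobase of exon it moved from place 12 to place 18 among the 37 genes, from 11.9 to 5.17 CPM per kb. HSFA2, the heat-induced amplifier of the response, had 0.794, 1.69 and 0.683 CPM in Col-0 and 1.55, 1.70 and 5.89 CPM in the mutant. One mutant library stood far above the other 5, the groups overlapped, and the gene did not pass (log2 fold change 1.49 ± 0.59 SE, edgeR adjusted p = 0.0815). Without that library, mutant replicate 3, the log2 fold change was 0.61 with an adjusted p of 0.257, and without mutant replicate 1 the adjusted p was 0.0471 (edgeR). The authors' deposited table of higher genes lists HSFA2 with a log2 fold change of 1.5 and an FDR of 0.0115. HSFA3, HSFA6B, HSFA7A and HSFA8 overlapped between groups, with log2 fold changes between −0.45 and 0.62 and adjusted p between 0.115 and 0.414 (edgeR).

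The class B factors HSFB2A and HSFB2B, closely related repressors, moved in opposite directions. HSFB2A, on chromosome 5, had 35.8, 37.8 and 36.8 CPM in Col-0 and 28.6, 26.6 and 30.7 CPM in the mutant, a 1.29-fold fall (edgeR adjusted p = 0.00911). HSFB2B, on chromosome 4, had 12.6, 12.5 and 12.2 CPM in Col-0 and 14.6, 16.2 and 17.3 CPM in the mutant, a 1.29-fold rise (edgeR adjusted p = 0.0190). Neither gene's groups overlapped, and both differences were small in size. The call for HSFB2B was lost without Col-0 replicates 1, 2 or 3 (adjusted p of 0.0657, 0.0504 and 0.0579, edgeR) and without mutant replicate 2 (0.0626). Genes on the opposite strand, AT4G05910 and AT4G11670, overlap 22.4% of the HSFB2B exons. AT4G11670 had 14.0 CPM in Col-0 and 12.4 CPM in the mutant (edgeR adjusted p = 0.167), and the sources used here do not say whether counting used strand.

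The last 2 factors had few reads or none. HSFC1, the single class C factor, had 6, 6 and 13 reads in Col-0 and 2, 2 and 1 reads in the mutant. Every Col-0 library was above every mutant library, and the ratio of summed reads per total, Col-0 over mutant, was 4.85 (95% Clopper-Pearson interval 1.83 to 16.2, counting error only). An exact two-sided permutation test gave p = 0.1, the smallest value 3 against 3 libraries allow. With no filter on low counts the edgeR adjusted p of HSFC1 was 0.0275. The antisense gene AT3G24518 overlaps 96.7% of the HSFC1 exons and had 2, 3 and 2 reads in Col-0 and 1, 1 and 2 in the mutant. HSFB1, a class B factor, had 0 reads in all 6 libraries, which at 3 reads per library allows 0.189 to 0.232 CPM, depending on the library. The locus numbered just below HSFB1, AT4G36988, was also at 0 in all 6, and the sources used here do not say how reads in overlapping gene models were counted. The CPM limit holds only if reads of HSFB1 could be counted, so 0 reads do not show that the gene was silent.

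**Figure D2:**
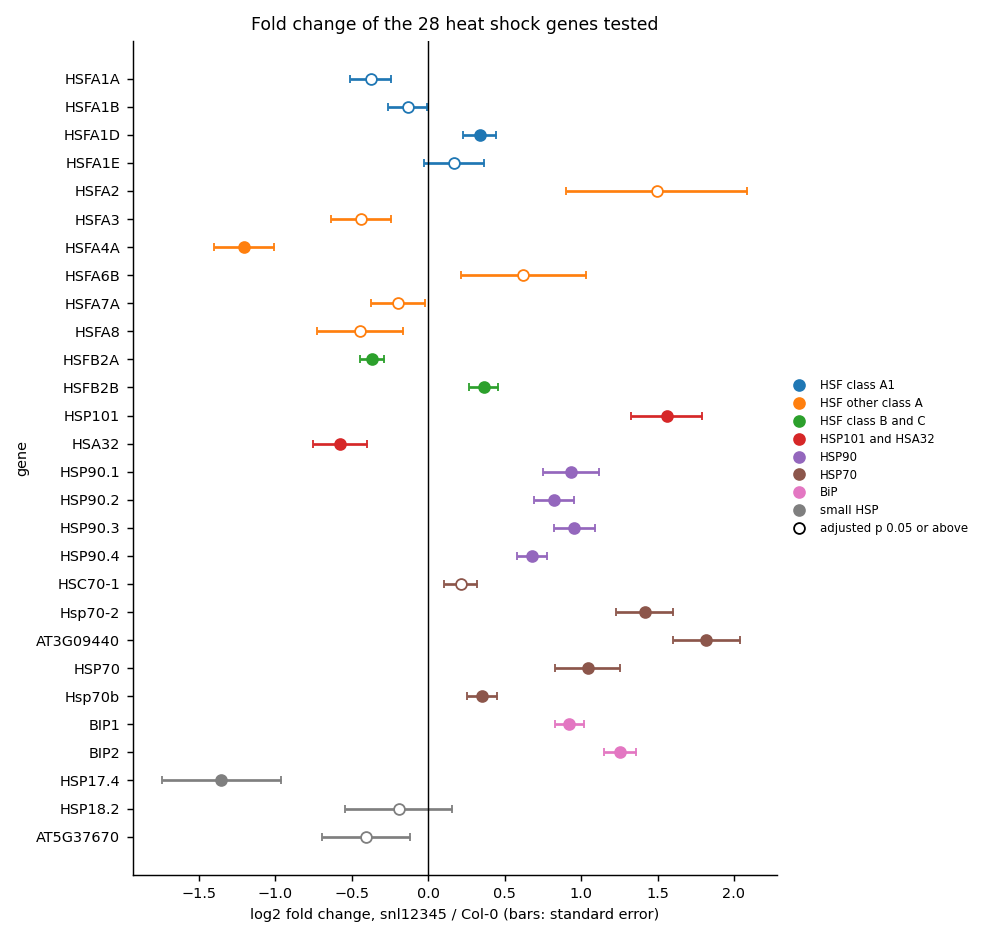
Log2 fold change (snl12345 over Col-0, horizontal axis) of the 28 tested genes, with bars for the standard error, colour for the class and filled points for an adjusted p below 0.05. HSP90, HSP70 and BiP genes lie right of 0, from 0.21 to 1.82, and the factors scatter on both sides.

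HSP101, the ClpB-type disaggregase that pulls proteins out of aggregates and is needed for acquired heat tolerance, was among the genes that changed most. It had 14.3, 18.4 and 10.5 CPM in Col-0 and 36.1, 35.4 and 56.5 CPM in the mutant. All mutant libraries lay well above all Col-0 libraries, and the rise was 2.95-fold (14.4 ± 3.93 to 42.7 ± 12 CPM, SD, n = 3, edgeR adjusted p = 0.00198). An antisense gene, AT1G74300, overlaps 3.00% of its exons and did not pass the test (edgeR adjusted p = 0.774). HSA32, a plant protein that prolongs acquired heat tolerance and acts together with HSP101, went the other way. Its levels were 19.5, 19.4 and 17.1 CPM in Col-0 and 9.52, 11.7 and 16.5 CPM in the mutant, a 1.49-fold fall (edgeR adjusted p = 0.0361). Mutant replicate 3 came close to the Col-0 libraries, and the groups did not overlap. The call for HSA32 was lost without Col-0 replicates 1, 2 or 3 (adjusted p of 0.114, 0.0899 and 0.0538, edgeR) and without mutant replicates 1 or 2 (0.0730 and 0.127). A gene on the same strand, AT4G21323, overlaps 8.47% of the HSA32 exons, at 1.57 CPM in Col-0 and 0.852 CPM in the mutant (edgeR adjusted p = 0.0759).

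All 4 cytosolic HSP90 genes rose, between 1.6-fold and 1.94-fold. HSP90 is an abundant chaperone that matures receptors and kinases and also holds heat shock factors inactive. HSP90.2, the most abundant, had 138, 159 and 118 CPM in Col-0 and 221, 231 and 283 CPM in the mutant (1.77-fold, edgeR adjusted p = 0.00249). HSP90.3 had 106, 129 and 88.8 CPM in Col-0 and 189, 209 and 229 CPM in the mutant (1.94-fold, edgeR adjusted p = 0.00155). Neither gene's groups overlapped. HSP90.4, which is the divergently transcribed neighbour of HSP90.3 on chromosome 5, had 17.1, 19.2 and 16.7 CPM in Col-0 and 25.3, 28.8 and 30.6 CPM in the mutant (1.6-fold, edgeR adjusted p = 0.00189). HSP90.1, the heat-inducible form and the one with a 3-unit element in the window printed above, had 33.1, 43.6 and 30.6 CPM in Col-0 and 57.2, 61.4 and 86.8 CPM in the mutant (1.91-fold, edgeR adjusted p = 0.00577). Folds of the inducible and the constitutive forms were not tested against each other. The coding sequences of HSP90.2, HSP90.3 and HSP90.4 are 91% to 95.4% identical (proteins 93.5% to 97.7%), and no BLAST+ alignment of their exons as a whole reached 95% identity. How reads in their shared stretches were divided is uncertain. With the counts of these 3 genes summed the rise was 1.83-fold (edgeR adjusted p = 0.00189). The summed level of the 4 genes was 299.6 ± 48.4 CPM in Col-0 and 551 ± 71.0 CPM in the mutant (SD, n = 3).

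Of the 5 cytosolic HSP70 genes, which hold nascent and unfolded chains, 4 rose. AT3G09440, a member of the HSP70 family on chromosome 3, had the largest fold change of the 28 genes. It had 53.0, 73.2 and 41.2 CPM in Col-0 and 157, 190 and 244 CPM in the mutant. The groups were far apart, with a 3.53-fold rise (55.8 ± 16.2 to 197 ± 43.6 CPM, SD, n = 3, edgeR adjusted p = 0.000862). Hsp70-2, next to HSC70-1 on chromosome 5, had 5.42, 7.62 and 4.25 CPM in Col-0 and 14.3, 16.9 and 15.1 CPM in the mutant, a 2.67-fold rise (edgeR adjusted p = 0.00125). The gene named HSP70 (AT3G12580), a strongly heat-induced form, had 40.1, 55.1 and 36.1 CPM in Col-0 and 75.7, 75.3 and 120 CPM in the mutant, a 2.06-fold rise (edgeR adjusted p = 0.00712). Its 3rd mutant library stood apart from the other 2, as for HSP101. Hsp70b, another inducible form, had 9.33, 8.83 and 8.65 CPM in Col-0 and 11.4, 10.8 and 12.1 CPM in the mutant, a 1.28-fold rise (edgeR adjusted p = 0.0258). Its call was lost without Col-0 replicates 1, 2 or 3 (adjusted p of 0.0617, 0.0719 and 0.0774, edgeR) and without mutant replicate 3 (0.0557).

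HSC70-1, the constitutive HSP70 that also binds class A1 factors, made up most of the HSP70 transcripts and did not pass. It had 2067, 2221 and 1747 CPM in Col-0 and 2306, 2215 and 2478 CPM in the mutant. The groups overlapped (log2 fold change 0.21 ± 0.11 SE, edgeR adjusted p = 0.152). Per kilobase of exon it was the most abundant of the 37 genes, at 787 CPM per kb in Col-0 and 913 CPM per kb in the mutant. HSP90.2 came second at 48.1 and 85.2 CPM per kb. The summed CPM of the 5 HSP70 genes, 2126 ± 267 in Col-0 and 2647 ± 194 in the mutant (SD, n = 3), therefore mostly followed HSC70-1. The 5 proteins are 81.9% to 93.9% identical. No BLAST+ alignment of at least 100 bp between their exons reached 95% identity as a whole. That search cannot show shorter near-identical stretches inside a longer alignment, so how reads in any such stretches were divided is uncertain. An antisense gene, AT3G09430, overlaps 18.9% of the AT3G09440 exons, at 1.2 CPM in Col-0 and 1.61 CPM in the mutant (edgeR adjusted p = 0.236).

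The ER chaperones BIP1 and BIP2 rose with a narrow spread between replicates. BIP1 had 110, 127 and 106 CPM in Col-0 and 198, 232 and 221 CPM in the mutant, a 1.90-fold rise (edgeR adjusted p = 0.000448). BIP2 had 89.9, 100 and 77.7 CPM in Col-0 and 193, 226 and 220 CPM in the mutant, a 2.39-fold rise (edgeR adjusted p = 0.000225). The lowest mutant library was far above the highest Col-0 library for both. The coding sequences of the 2 genes are 96.0% identical, and 2117 bp of their exons aligned at 95% identity or more, so how their reads were divided is uncertain. With counts summed the rise was 2.11-fold (log2 fold change 1.08 ± 0.10 SE, edgeR adjusted p = 0.000312). BIP3, the form made almost only under ER stress, had 7, 1 and 3 reads in Col-0 and 5, 14 and 6 in the mutant. These groups overlapped, and the ratio of summed reads per total, mutant over Col-0, was 2.34 (95% Clopper-Pearson interval 1.11 to 5.27, exact two-sided permutation p = 0.3). The rise was thus measured on BIP1 and BIP2, and BIP3 stayed at or below 14 reads in every library.

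Small heat shock proteins coat unfolding proteins, and their genes are among the most heat-inducible of plant genes. The 9 of this set were nearly silent in both groups, unlike some of the other small heat shock genes given further below. The 9 genes together reached 4.63 to 7.28 CPM in Col-0 and 4.18 to 6.04 CPM in the mutant, and 6 of them had too few reads to be tested. AT5G37670 was the most abundant, with 1.92, 2.76 and 1.52 CPM in Col-0 and 1.32, 1.95 and 1.38 CPM in the mutant. Its groups overlapped (edgeR adjusted p = 0.301), as did those of HSP18.2 (group means of 1.32 and 1.16 CPM, edgeR adjusted p = 0.693). HSP17.4, a cytosolic class I protein, had 23, 30 and 14 reads in Col-0 and 7, 6 and 12 in the mutant, that is 1.52, 2.02 and 1.06 CPM against 0.542, 0.378 and 0.918 CPM. It was the small heat shock gene that fell, 2.55-fold without overlap (edgeR adjusted p = 0.0273). The call was lost without Col-0 replicates 1 or 2 (adjusted p of 0.0783 and 0.0924, edgeR) and without mutant replicates 1 or 2 (0.0639 and 0.106). The genes AT3G46220 and AT3G07365 overlap 70.9% of the HSP17.4 exons on the opposite strand. AT3G46220 had 23.1 CPM in Col-0 and 22.7 CPM in the mutant (edgeR adjusted p = 0.847), so a share of its reads counted for HSP17.4 cannot be told apart from HSP17.4 reads.

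Of the small heat shock genes below the filter, HSP17.6A, a cytosolic class II protein, was the one whose CPM did not overlap between groups. It had 4, 2 and 5 reads in Col-0 and 5, 10 and 10 in the mutant (exact two-sided permutation p = 0.1 on CPM, edgeR adjusted p of 0.117 with no filter). Its neighbour HSP17.6II, also class II, had 3, 0 and 5 reads in Col-0 and 3, 1 and 3 in the mutant. AT1G53540, whose window holds a 3-unit element, had 8, 4 and 3 reads in Col-0 and 4, 5 and 11 in the mutant. No direction can be read for these last genes at this depth. HSP21, the chloroplast form, had 2, 2 and 2 reads in Col-0 and 0, 1 and 3 in the mutant. ATHSP22.0, the ER form, had 0, 0 and 1 reads in Col-0 and 1, 1 and 2 in the mutant. HSP23.6-MITO, the mitochondrial form, had 6, 6 and 2 reads in Col-0 and 2, 8 and 7 in the mutant. For these 5 genes the exact two-sided permutation p lay between 0.2 and 1.0. With 3 against 3 libraries this test cannot fall below 0.1, so it could not call a difference of any size. Few reads stood behind each of these genes. HSP23.6-MITO shares 124 bp of near-identical exon with AT3G05995.

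**Figure D3:**
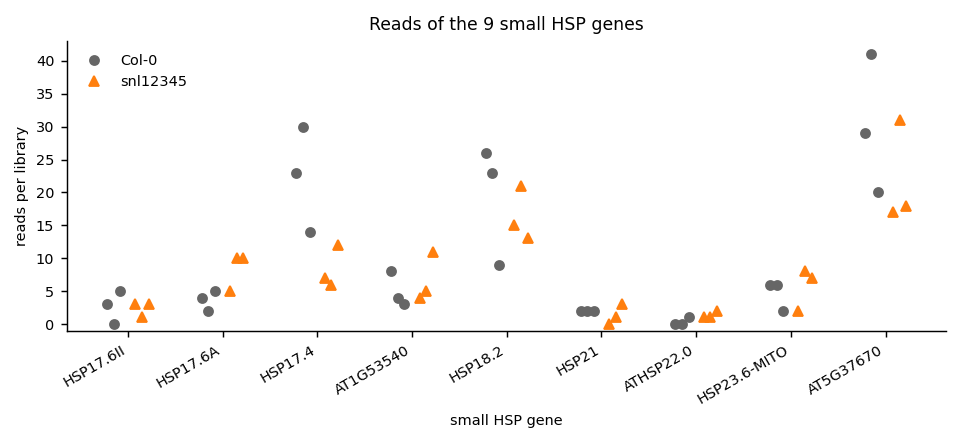
Reads per library (vertical axis) of the 9 small heat shock genes, with circles for the 3 Col-0 and triangles for the 3 snl12345 libraries. No gene exceeds 41 reads in any library, and HSP17.4 is the gene whose circles (14 to 30 reads) lie above its triangles (6 to 12 reads).

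The median level of HSP101, the 4 HSP90 and the 5 HSP70 genes relative to the Col-0 mean was 0.976, 1.21 and 0.840 in Col-0 replicates 1 to 3 and 1.66, 1.72 and 2.28 in the mutant replicates. For BIP1, BIP2 and 6 listed ER chaperones it was 0.975, 1.07 and 0.970 in Col-0 and 1.70, 1.83 and 1.76 in the mutant. The first set leaves out HSA32 and the small heat shock genes, and all its genes but HSC70-1 were called higher. The ER set leaves out BIP3, and all its genes were called higher. These levels therefore describe the chosen genes, not cytosolic or ER chaperones in general. The medians over all tested genes lay between 0.994 and 1.00 in the 6 libraries. Mutant replicate 3 was the highest of the 6 libraries for 9 of the 10 cytosolic genes, all but Hsp70-2, and for 1 of the 8 ER genes. Mutant replicate 2 was the highest for the other 7 ER genes. Col-0 replicate 2 was the highest control for 9 of the 10 cytosolic genes, all but Hsp70b, and for 7 of the 8 ER genes. Mutant replicate 3 was the highest of the 6 libraries for 13 of the 28 tested heat shock genes, against 17.5% of all tested genes. Without it, 11 heat shock genes stayed higher, and HSP101, AT3G09440, HSP70, all 4 HSP90 genes, Hsp70-2, BIP1 and BIP2 kept their calls. The part of this library in the calls that were lost without it, those of HSFA1D and Hsp70b, was not tested further.

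**Figure D4:**
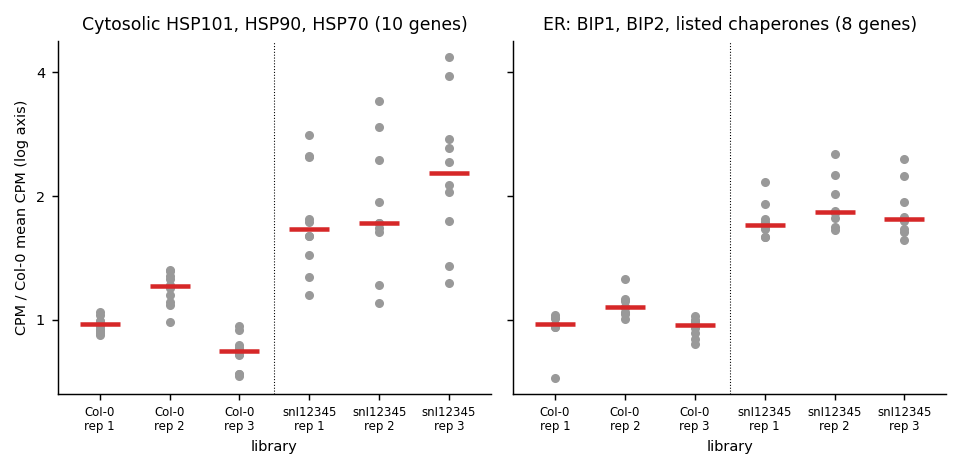
Level relative to the Col-0 mean (log axis) in each library, for 10 cytosolic chaperone genes (HSP101, HSP90 and HSP70, left) and 8 ER chaperone genes (right), with grey points for genes and red bars for their median. The cytosolic median reaches 2.28 in snl12345 replicate 3 and 1.66 to 1.72 in the other mutant libraries, and the ER medians lie between 1.70 and 1.83.

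The other genes of these pathways were taken from 6 lists with 58 genes, of which 52 were tested, 24 were higher and 3 lower (median log2 fold change 0.28). These counts, and those of each list, stand against the 18.3% higher and 16.5% lower among all tested genes. Of the 8 genes in the ER list 6 were higher and none lower (median log2 fold change 0.72). SDF2, an ER quality control protein, had 33.9, 33.6 and 33.1 CPM in Col-0 and 58.9, 61.7 and 58.2 CPM in the mutant (1.78-fold, edgeR adjusted p = 0.000210). The lectin chaperone CNX1 rose 2.13-fold (edgeR adjusted p = 0.000278) and the calreticulin CRT1B 1.64-fold (edgeR adjusted p = 0.000288). The 2 genes that did not pass were BZIP60 and BZIP28, the transcription factors of the unfolded protein response. Their log2 fold changes were −0.55 ± 0.27 SE (edgeR adjusted p = 0.139) and −0.17 ± 0.07 SE (edgeR adjusted p = 0.0989). The adjusted p of BZIP60 was 0.0219 without Col-0 replicate 2, and that of BZIP28 0.0438 without mutant replicate 3 (edgeR).

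Co-chaperones that work with HSP70 and HSP90 were higher in 6 of 14 cases, with none lower (median log2 fold change 0.23). The immunophilin ROF2, an HSP90 partner that modulates HSFA2, had 14.5, 19.3 and 13.2 CPM in Col-0 and 42.8, 44.1 and 59.1 CPM in the mutant (3.10-fold, edgeR adjusted p = 0.000502). Its relative ROF1 rose 1.64-fold (edgeR adjusted p = 0.00283). HSBP, a small protein that inhibits heat shock factors, rose 1.48-fold (edgeR adjusted p = 0.00165). Of the remaining HSP70, HSP90, HSP60 and ClpB genes, 7 of 16 tested were higher and none lower (median log2 fold change 0.26). HSP90.7, the ER form of HSP90, rose 1.51-fold (edgeR adjusted p = 0.000784), the HSP70 family gene AT4G16660 1.47-fold (edgeR adjusted p = 0.000904) and the mitochondrial mtHSC70-2 1.64-fold (edgeR adjusted p = 0.00591). The plastid and mitochondrial ClpB genes CLPB3 and CLPB4, relatives of HSP101, did not pass (edgeR adjusted p of 0.716 and 0.5).

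The 7 other small heat shock genes, all tested, included 4 that were higher and none that were lower (median log2 fold change 1.21). AT5G51440 had 4.37, 4.92 and 3.95 CPM in Col-0 and 11.5, 12.2 and 16.2 CPM in the mutant (3.00-fold, edgeR adjusted p = 0.000532). AT2G19310 rose 1.86-fold, from 33.8 to 63.0 CPM (edgeR adjusted p = 0.00176), and AT2G29500 1.88-fold (edgeR adjusted p = 0.0303). AT4G21870 had 31.0 CPM in Col-0 and 30.7 CPM in the mutant and did not pass (edgeR adjusted p = 0.959). Together these 7 genes reached 67.2 to 85.6 CPM in Col-0 and 99.4 to 149 CPM in the mutant. The call for AT2G29500 was lost without Col-0 replicates 1 or 3 (adjusted p of 0.0992 and 0.0860, edgeR) and without mutant replicates 1 or 3 (0.0757 and 0.0518). The remaining higher gene, AT1G52560, had 6, 10 and 7 reads in Col-0 and 24, 17 and 11 in the mutant (edgeR adjusted p = 0.0432). In 8 of 12 alternative fits its call was lost. The lists were not compared by a test. Of the 4 other HSF genes tested, HSFA4C and HSFA5, the relatives of HSFA4A, fell 1.34-fold (edgeR adjusted p = 0.00925) and 1.30-fold (edgeR adjusted p = 0.0147). Both calls were lost without Col-0 replicate 1 (adjusted p of 0.0507 and 0.0694, edgeR), and that of HSFA5 also without mutant replicate 2 (0.0562). MBF1C, a heat-induced coactivator, rose 2.36-fold (edgeR adjusted p = 0.00129). GOLS1, a heat- and HSF-dependent galactinol synthase, fell 1.25-fold (edgeR adjusted p = 0.0269), a call lost without Col-0 replicates 1, 2 or 3 (adjusted p of 0.0740, 0.0789 and 0.0670, edgeR).

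**Figure D5:**
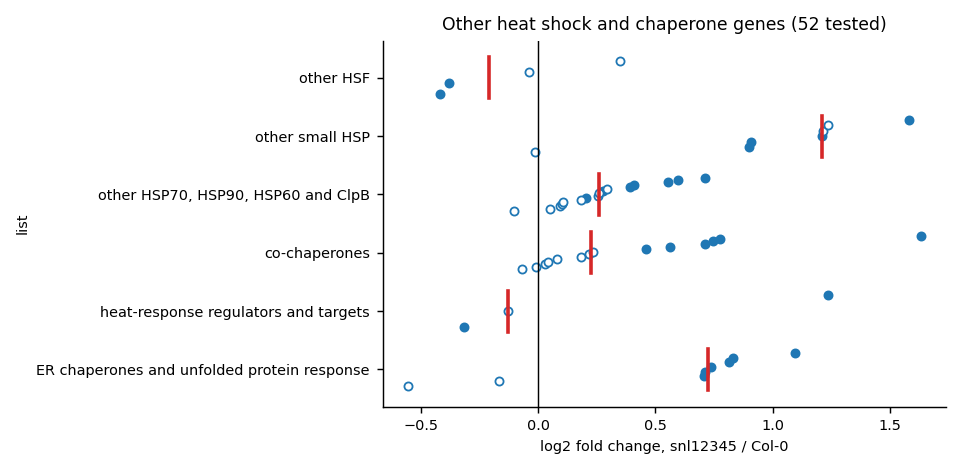
Log2 fold change (snl12345 over Col-0, horizontal axis) of 52 tested genes in 6 lists, with filled points for an adjusted p below 0.05 and red bars for the list median. The ER and small heat shock lists have medians of 0.72 and 1.21, and the other HSF genes one of −0.21.

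The authors' deposited table of higher genes holds 695 genes, among them BIP2, AT3G09440, HSP101, Hsp70-2, HSP70 and HSFA2 of the 37. The authors' deposited table of lower genes holds 480 genes, among them HSFA4A and HSP17.4. Every gene in these tables has a log2 fold change of at least 1.00 in size, so the HSP90 genes and BIP1, with differences of less than 2-fold, are in neither. HSFA2 is the gene of these 8 that did not pass the test used here.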

How the data were processed

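RNA from the shoots of 3 Col-0 and 3 snl12345 samples was sequenced with a directional kit, per the labels' protocols. The submitters' processing notes name cutadapt 1.4, TopHat, HTSeq, edgeR and the TAIR10 genome. The sources used here give neither the other versions nor the role of each tool nor the strand setting. The authors deposited whole-number counts per locus for each library. In 2 further tables, one of higher and one of lower genes, the authors deposited log2 fold changes, log2 mean CPM, p-values and FDR values, from a test that the sources used here do not name. A further 24 columns with values per library in these tables were not used.

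From the counts, genes were kept with filterByExpr (minimum count 10, minimum total 15), scaled by TMM (factors 0.966 to 1.02) and tested with edgeR 4.0.16 (glmQLFit and glmQLFTest, genotype as the single term) in R 4.3.3. P-values were adjusted by the Benjamini-Hochberg method over all 19591 genes tested, with a threshold of 0.05. The standard error is the log2 fold change divided by the square root of F, folds are 2 to the power of the fitted value, and CPM per kb uses RefSeq exon length. Genes below the filter are given as reads, with an exact permutation test and a 95% interval that covers counting error only.

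Symbols, exons and upstream sequences come from RefSeq's TAIR10.1 genome and annotation, which matched 32835 loci by locus tag; the deposited files hold no coordinates. Protein and coding identity came from global pairwise alignments, as a percentage of the longer sequence. Near-identical exon stretches were searched for with BLAST+ 2.17.0. The 37 genes, the lists and the rule for naming genes were chosen with earlier results of these data known. All 37 genes are accounted for, with values per library for those that passed, those below the filter and the most abundant of each class, and at most 3 called genes of each list. AT1G52560 was named in addition, for its unstable call. Alternatives were size factors of DESeq2 1.42.0, scaling by library totals alone, no filter or a filter of at least 1 CPM in 3 libraries, limma-voom (limma 3.58.1), a default DESeq2 run, a replicate block, each library left out and summed near-identical copies.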

Additional observations from a re-analysis of the deposited data

How the results depend on the processing

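Of 368 recomputed values over the 28 tested heat shock genes, 335 kept their direction and their side of the threshold, 29 lost the call, 3 gained one and 1 reversed. The calls of 12 genes (10 higher, 2 lower) held in every alternative, and those of HSA32, HSFA1D, HSFB2B, HSP17.4 and Hsp70b did not. Leaving out single libraries gave 10 to 13 higher and 2 to 4 lower heat shock genes, 2290 (without Col-0 replicate 1) to 3806 (without mutant replicate 3) higher and 1757 (without Col-0 replicate 1) to 3511 lower genes in all, and 1893 lower without mutant replicate 2. In the pathway lists it gave 16 to 22 higher genes and 0 (without Col-0 replicate 1) to 5 (without mutant replicate 3) lower. Fewer libraries enter these fits, and the cause of the differences between them was not tested. Without a filter, 1 heat shock gene (HSFB1, with no reads) stayed untested instead of 9. In the default DESeq2 run the same gene was left out beforehand, and genes given no adjusted p were not counted. The default DESeq2 run lost HSFA1D (adjusted p = 0.12), HSFB2B (0.062) and Hsp70b (0.112) and gained HSFA2 (0.0331). Deviations of same-numbered libraries correlated at 0.006, 0.151 and −0.055, and the value for replicates 2 was the highest of all pairs. Col-0 replicates 1 and 3 correlated best with mutant replicates 3 and 1. These weak correlations cannot decide whether the replicate numbers pair the samples. With the replicate block, 11 heat shock genes were higher and 2 lower, and HSFA1D (0.0828), Hsp70b (0.0568), HSA32 (0.0518) and HSP17.4 (0.0638) lost their calls. Leaving out single libraries reversed 9 log2 fold changes, none of them called: HSP18.2 (−0.49 to 0.045), HSFA6A (−0.022 to 0.60), HSFB4 (−0.23 to 0.093), AT4G21870 (−0.24 to 0.14), CLPB3 (−0.016 to 0.15), SGT1A (−0.16 to 0.076), AT4G02450 (−0.017 to 0.10), AT3G03773 (−0.14 to 0.016) and DREB2A (−0.26 to 0.11). At most 14 reads per library stood behind the 9 genes below the filter, and at most 41 behind HSP17.4, HSP18.2 and AT5G37670, which limits the precision of their values.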

Other observations

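Among the heat shock factors outside the 37 genes, HSFA7B, chosen after its values were seen, had 11, 14 and 8 reads in Col-0 and 1, 4 and 0 reads in the mutant. Like HSFC1, it was below the filter on low counts and lay lower in every mutant library than in any Col-0 library. The seed factor HSFA9 had 0 reads in all 6 libraries, and HSFB3 had 6, 1 and 8 reads in Col-0 and 8, 3 and 4 in the mutant. APX2, a classical HSFA2 target, had 0, 0 and 1 reads in Col-0 and 0, 2 and 0 in the mutant. HSP70T-1, an HSP70 gene, had 1 read in all 6 libraries together.

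The small heat shock genes AT1G07400 and AT1G59860, also chosen after their values were seen, followed the replicate pattern of HSFA2. AT1G07400 had 2.12, 2.90 and 1.21 CPM in Col-0 and 3.72, 2.90 and 8.18 CPM in the mutant (edgeR adjusted p = 0.0602). AT1G59860 had 1.52, 2.09 and 0.531 CPM in Col-0 and 2.32, 2.14 and 5.58 CPM in the mutant (edgeR adjusted p = 0.0860). In both, as in HSFA2, mutant replicate 3 was the highest and Col-0 replicate 3 the lowest library. The authors' deposited table of higher genes lists both, with FDR values of 0.00776 and 0.0168.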
